A study of Kluyveromyces lactis with 12 samples.

Results

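HOG1 (KLLA0F20053g) and SKN7 (KLLA0A10219g) are the genes of a stress-activated kinase and of a stress-responsive transcription regulator in Kluyveromyces lactis, a budding yeast. They were followed as 2 of the 5081 genes on the array, chosen by their identifiers, each with 1 probe in 2 spots. RNA was measured on 12 two-colour arrays, each with a Klyap8∆ strain, which lacks the arsenic-linked regulator gene YAP8, in one dye and the wild type Klwt of the same condition in the other. Cells in exponential growth in rich medium (YPD) were untreated, or were exposed for 30 min to sodium arsenite or to tert-butyl hydroperoxide (t-BOOH, an organic peroxide) at 0.25 mM, with 4 biological experiments per condition. For arsenite the sample characteristics give 25 mM, whereas the protocol gives 0.1 mM. No source used here says how the deletion was made or whether it rests on 1 clone. Untreated and arsenite arrays lay on slide 1 with 1 scan and t-BOOH arrays on slide 2 with another, so t-BOOH and slide cannot be told apart wherever t-BOOH is set against untreated or arsenite.

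Hog1 is the last kinase of the high-osmolarity glycerol pathway. In Saccharomyces cerevisiae, membrane sensors act through a phosphorelay (Sln1, Ypd1 and Ssk1) or through Sho1 onto the kinase Pbs2, which phosphorylates Hog1, and arsenite is among the stresses that activate it. Skn7 carries a heat-shock-factor-type DNA-binding domain and a receiver domain, takes phosphate from the same Ypd1, and takes part in the oxidative stress and cell wall responses of that yeast. Arrays measure RNA, so the phosphorylation that switches Hog1 on is not seen here, and in bulk RNA a change in all cells and a change in part of the cells cannot be told apart. Gene symbols are mostly those of S. cerevisiae counterparts, and roles named below are known from that yeast.

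Both probes were bright. Over 12 arrays, 2 spots and 2 channels, all 48 readings of each gene were well above background, with median pixel intensities of 471.5 to 28876 for HOG1 and 723 to 7290 for SKN7 over a local background of at most 43. No reading was saturated and no spot of either gene carried an outlier flag. The 2 spots of a gene on one array gave log2 ratios of deletion over wild type that differed by a median of 0.03 for each gene, and by at most 0.06 for HOG1 and 0.11 for SKN7. In brightness the spots differed more on t-BOOH replicate 1, by 6.50-fold (deletion strain) and 6.24-fold (wild type) for HOG1 and by 1.89-fold and 1.78-fold for SKN7, against at most 1.16-fold for either gene on the other 11 arrays. Levels, unlike ratios, carry this difference, so HOG1 levels on that array are uncertain. The SD of the ratio over the 4 arrays of a condition, 0.06 to 0.54, was above these medians. Median brightness per array ran from 719 to 3048.75 in Cy3 and from 2373.75 to 7526 in Cy5. By correlation of levels with the other arrays of the condition, untreated replicate 4 (0.942) and t-BOOH replicate 1 (0.916) stood below the other 10 (0.964 to 0.996), and the ratios of t-BOOH replicate 3 correlated at 0.03 with those of the other t-BOOH arrays. The deleted gene itself, listed as ARR1 (KLLA0E00265g), had log2 ratios of deletion over wild type of -2.20 to -0.61 on the 12 arrays, below 0 on each. The value of -0.61 was that of untreated replicate 4. All 48 ARR1 readings, those of the deletion strain included, were well above background, at 685 or more over at most 44. Whether its probe lies in the deleted stretch is not stated in any source used here.

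SKN7 fell under arsenite in both strains. Wild-type levels, as normalized log2 intensity, were 11.46, 11.65, 11.32 and 11.93 in untreated replicates 1 to 4, and 10.48, 10.85, 10.43 and 10.80 under arsenite. Every arsenite value lay below every untreated value, and groups that did not overlap, in either direction, were seen for 35.9% of the 5069 genes tested. The fall was 1.93-fold (log2 -0.95, SE 0.19, 95% interval -1.35 to -0.56), with a limma adjusted p of 0.00107 over all genes tested. Of those genes 22.3% were called in this comparison at an adjusted p under 0.05, 10% as lower, and 176 had a log2 change below that of SKN7.

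The deletion strain showed the same fall within the error of the fit. Its SKN7 levels were 11.64, 11.81, 11.42 and 12.16 untreated and 10.71, 10.82, 10.75 and 10.87 under arsenite. Again no arsenite value reached an untreated one, and 25.3% of genes had groups without overlap in either direction. The change was log2 -0.97 (SE 0.19, 95% interval -1.36 to -0.57, limma adjusted p = 0.00207), a 1.95-fold fall, in a comparison where 10.3% of genes were called, 3.81% as lower. With all genes ordered by this change, 68 lay below SKN7. The strains were set against each other on the same arrays, and the difference of the SKN7 response between them was log2 -0.01 (95% interval -0.40 to 0.37, limma adjusted p = 0.986). That interval leaves room for a difference of up to 0.40 either way. Untreated and arsenite arrays shared a slide and a scan, and a fit on these 8 arrays alone, chosen after seeing the data, gave the same values with limma adjusted p = 2.17e-04 in the wild type and 4.37e-04 in the deletion strain.

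**Figure D1:**
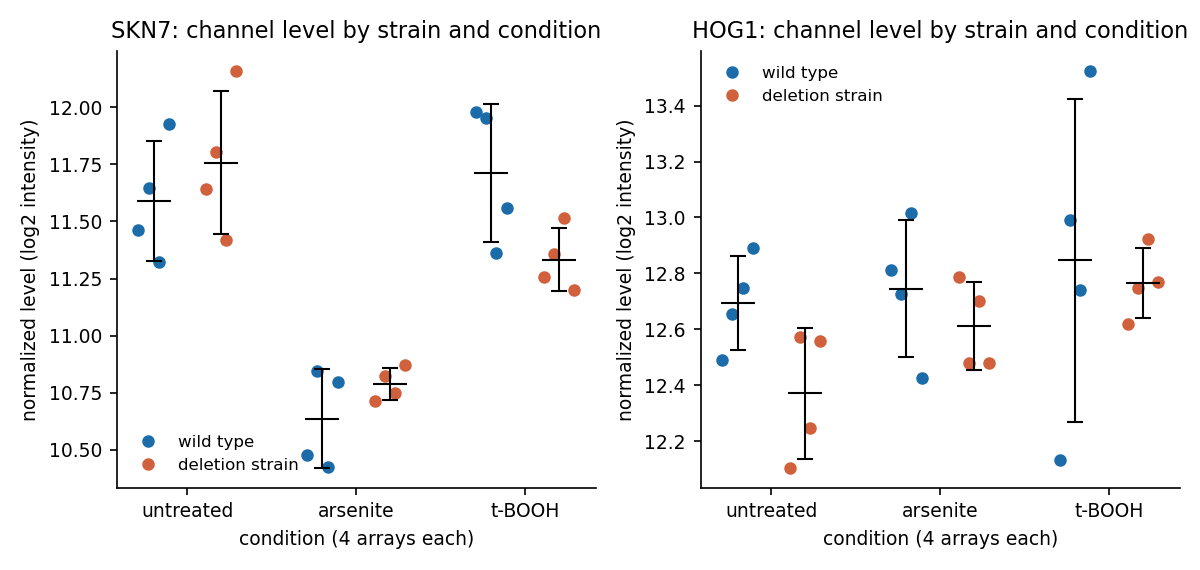
Normalized channel levels (log2 intensity, y axis) of SKN7 (left) and HOG1 (right) by condition, with 1 point per array and strain, bars at the mean and whiskers of 1 SD (n = 4). All 8 SKN7 points under arsenite lie at or below 10.87 and all untreated ones at or above 11.32, while HOG1 groups overlap except for the deletion strain under t-BOOH against untreated. The y axes do not start at 0 and differ between the panels.

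Under t-BOOH, SKN7 stayed near its untreated level in the wild type and lay lower in the deletion strain, with neither change past the threshold. Wild-type levels were 11.98, 11.95, 11.36 and 11.56 in replicates 1 to 4, inside and just above the untreated range. Deletion-strain levels were 11.26, 11.36, 11.51 and 11.20, with replicate 3 inside the untreated range of that strain and the other 3 below it. The wild-type change was log2 0.12 (SE 0.19, 95% interval -0.27 to 0.52, limma adjusted p = 0.615). The deletion-strain change was log2 -0.42 (SE 0.19, 95% interval -0.82 to -0.03, limma adjusted p = 0.0784). In these comparisons 49% and 43% of all genes were called.

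SKN7 was therefore ordered as t-BOOH and untreated, which did not differ beyond their spread, and then arsenite in the wild type. Wild-type SKN7 was 2.11-fold higher under t-BOOH than under arsenite (log2 1.08, SE 0.19, limma adjusted p = 8.66e-05), with no overlap of the groups (47.4% of genes in either direction), and 50.6% of genes were called, 27.4% as higher. In the deletion strain the means ran from untreated (11.76 ± 0.31) over t-BOOH (11.33 ± 0.14) to arsenite (10.79 ± 0.07, SD, n = 4 each). There t-BOOH over arsenite gave log2 0.54 (SE 0.19, limma adjusted p = 0.0252), without overlap (45.9% of genes in either direction), and 43.7% were called, 23.7% as higher. This last call was lost without arsenite replicate 1 (log2 0.51, adjusted p = 0.0729) or arsenite replicate 3 (log2 0.53, adjusted p = 0.0618). Each of these comparisons with t-BOOH is also one between slides.

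Within the arrays, the ratio of deletion over wild type for SKN7 was near 0 in untreated and arsenite cells. On the t-BOOH arrays it was below 0 on 3 of 4, and with all arrays no difference between conditions passed the threshold. In untreated cells the log2 ratios were 0.18, 0.16, 0.10 and 0.23, above 0 on all 4 arrays, and 18.5% of genes had 1 direction on all 4. Under arsenite they were 0.23, -0.02, 0.33 and 0.07. Under t-BOOH they were -0.72, -0.59, 0.15 and -0.36. Replicate 3 under t-BOOH stood on the other side of 0 from the remaining 3.

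By the fit, the SKN7 ratio was 0.17 untreated (SE 0.12, 95% interval -0.10 to 0.44, limma adjusted p = 0.689) and 0.15 under arsenite (95% interval -0.12 to 0.42, limma adjusted p = 0.499). The ratio under t-BOOH was -0.38 (SE 0.12, 95% interval -0.65 to -0.11), or 1.30-fold lower, with a limma adjusted p of 0.0519, just short of the threshold. Genes called in these 3 comparisons made up 0.612%, 4.3% and 18%. Without t-BOOH replicate 3, SKN7 was called, at log2 -0.59 (SE 0.09, limma adjusted p = 7.03e-04), and leaving out t-BOOH replicate 1 or 2 moved it to -0.26 or -0.29 with no call. On t-BOOH replicate 3 ARR1 had a log2 ratio of -1.56, just above its range of -1.81 to -1.59 on the other 3 t-BOOH arrays. With all 12 arrays kept, the SKN7 ratio was also called without a dye coefficient (-0.38, limma adjusted p = 0.0461). It was called too with array quality weights (-0.64, limma adjusted p = 1.35e-06), whose estimate stopped before full convergence. Of 10 alternatives in processing or choice of arrays 3 called it, and the limma adjusted p ran as high as 0.254. The SD over arrays was 0.39 under t-BOOH, against 0.06 untreated and 0.16 under arsenite, while the fit shares 1 spread over all arrays.

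**Figure D2:**
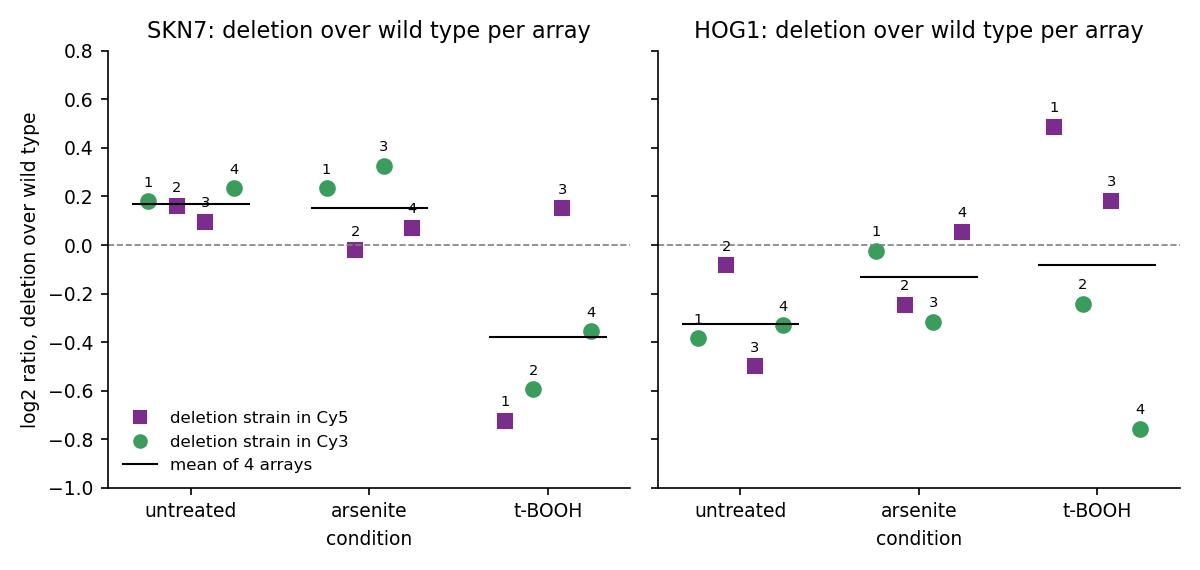
Log2 ratio of deletion over wild type (y axis) on each array by condition for SKN7 (left) and HOG1 (right), with the replicate number above each point, the dye of the deletion strain by shape and colour, and the mean of 4 arrays as a line. SKN7 under t-BOOH lies between -0.72 and -0.36 on 3 arrays and at 0.15 on replicate 3, and HOG1 under t-BOOH is above 0 where the deletion strain was in Cy5 and below 0 where it was in Cy3.

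The difference of the SKN7 ratio between t-BOOH and the other conditions was tested directly. It was log2 -0.55 against untreated (SE 0.18, 95% interval -0.93 to -0.16, limma adjusted p = 0.0924) and -0.53 against arsenite (SE 0.18, 95% interval -0.91 to -0.15, limma adjusted p = 0.0784). Neither passed, where 2.84% and 8.01% of genes did. Without t-BOOH replicate 3 both were called, at -0.76 (adjusted p = 0.00177) and -0.74 (adjusted p = 0.00209). Both strains share each array, but whether the ratio of t-BOOH arrays moves with their slide cannot be told apart from the peroxide.

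**Figure D3:**
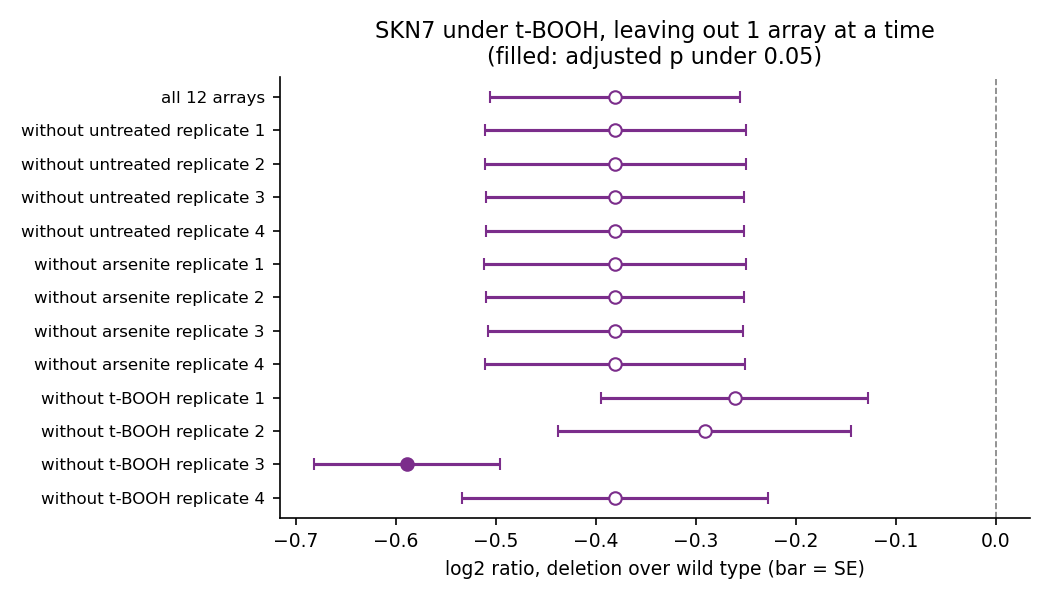
Fitted log2 ratio of deletion over wild type for SKN7 under t-BOOH (x axis, bars of 1 SE) with all 12 arrays and with each array left out in turn (y axis), filled where the limma adjusted p was under 0.05. The value without t-BOOH replicate 3, -0.59, is the only filled point, and the others lie between -0.38 and -0.26.

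HOG1 RNA changed in no comparison that passed the test. Wild-type levels were 12.49, 12.66, 12.75 and 12.89 untreated, 12.81, 12.73, 13.02 and 12.43 with arsenite, and 12.13, 12.99, 12.74 and 13.53 with t-BOOH. The groups overlapped, and the t-BOOH arrays spread most. The arsenite response of the wild type was log2 0.05 (SE 0.22, 95% interval -0.40 to 0.50, limma adjusted p = 0.897). The response to t-BOOH was log2 0.15 (95% interval -0.30 to 0.60, limma adjusted p = 0.585), and 0.37 (limma adjusted p = 0.0845) without t-BOOH replicate 1, where the HOG1 spots differed in brightness. On the linear scale these intervals run from 0.757 to 1.42 and from 0.813 to 1.52 times the untreated level, so changes within them are not excluded.

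In the deletion strain the HOG1 mean was lowest untreated (12.37 ± 0.23), then 12.61 ± 0.16 under arsenite and 12.77 ± 0.13 under t-BOOH (SD, n = 4 each), with no step past the threshold. Its levels were 12.10, 12.57, 12.25 and 12.56 untreated, 12.79, 12.48, 12.70 and 12.48 with arsenite, and 12.62, 12.75, 12.92 and 12.77 with t-BOOH. All 4 t-BOOH values were above all 4 untreated ones, and 34% of genes had groups without overlap in either direction. The responses were log2 0.24 to arsenite (95% interval -0.21 to 0.69, limma adjusted p = 0.563) and 0.39 to t-BOOH (95% interval -0.06 to 0.85, limma adjusted p = 0.153). The t-BOOH response was called without t-BOOH replicate 1 (log2 0.46, adjusted p = 0.0374). For t-BOOH over arsenite the values were 0.10 in the wild type and 0.15 in the deletion strain (limma adjusted p = 0.719 and 0.594). The order of the HOG1 means, t-BOOH over arsenite over untreated in each strain, thus held no step past the threshold with all arrays.

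The HOG1 ratio of deletion over wild type was below 0 on all 4 untreated arrays, at -0.38, -0.08, -0.50 and -0.33, and 18.5% of genes had 1 direction on all 4. The fitted HOG1 value was -0.32 (SE 0.14, 95% interval -0.63 to -0.02), with a limma p of 0.0394 that became 0.443 after adjustment over all genes tested. Without untreated replicate 3 it was -0.20. Under arsenite the ratios were -0.02, -0.25, -0.32 and 0.05, with a fit of -0.13 (95% interval -0.44 to 0.17, limma adjusted p = 0.617), which moved to -0.24 without arsenite replicate 1 and to -0.030 without arsenite replicate 2. Under t-BOOH they were 0.49, -0.24, 0.18 and -0.76, with a fit of -0.08 (95% interval -0.39 to 0.22, limma adjusted p = 0.722). The SD over arrays was 0.54 under t-BOOH, against 0.18 in each of the other conditions. The fit shares 1 spread over all arrays. Fitted on the 4 t-BOOH arrays alone, with the dye coefficient kept, the ratio had an SE of 0.13 (limma adjusted p = 0.713), beside 0.14 with all arrays. The ratio did not pass as different between conditions (0.19 for arsenite minus untreated, 0.24 for t-BOOH minus untreated and 0.05 for t-BOOH minus arsenite, limma adjusted p = 0.788, 0.487 and 0.898), in comparisons where 0.0395%, 2.84% and 8.01% of genes were called.

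Under t-BOOH the sign of the HOG1 ratio followed the dye. With the deletion strain in Cy5 (replicates 1 and 3) it averaged 0.33, and with the deletion strain in Cy3 (replicates 2 and 4) it averaged -0.50. Read as Cy5 over Cy3, HOG1 was at 0.49, 0.24, 0.18 and 0.76 in replicates 1 to 4, above 0 on each array of slide 2, which was noticed after seeing the values. In untreated cells Cy5 over Cy3 was 0.38, -0.08, -0.50 and 0.33, and under arsenite 0.02, -0.25, 0.32 and 0.05, with both signs in each. One direction of Cy5 over Cy3 on all 4 arrays was seen for 12.5% of genes under t-BOOH, 8.66% untreated and 9.55% under arsenite. SKN7 under t-BOOH averaged -0.29 with the deletion strain in Cy5, over 2 arrays of opposite sign (-0.72 and 0.15). With the deletion strain in Cy3 it averaged -0.48 (-0.59 and -0.36). The dye coefficient of the fit is common to all conditions, and the part of a dye effect on slide 2 alone was not tested.

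**Figure D4:**
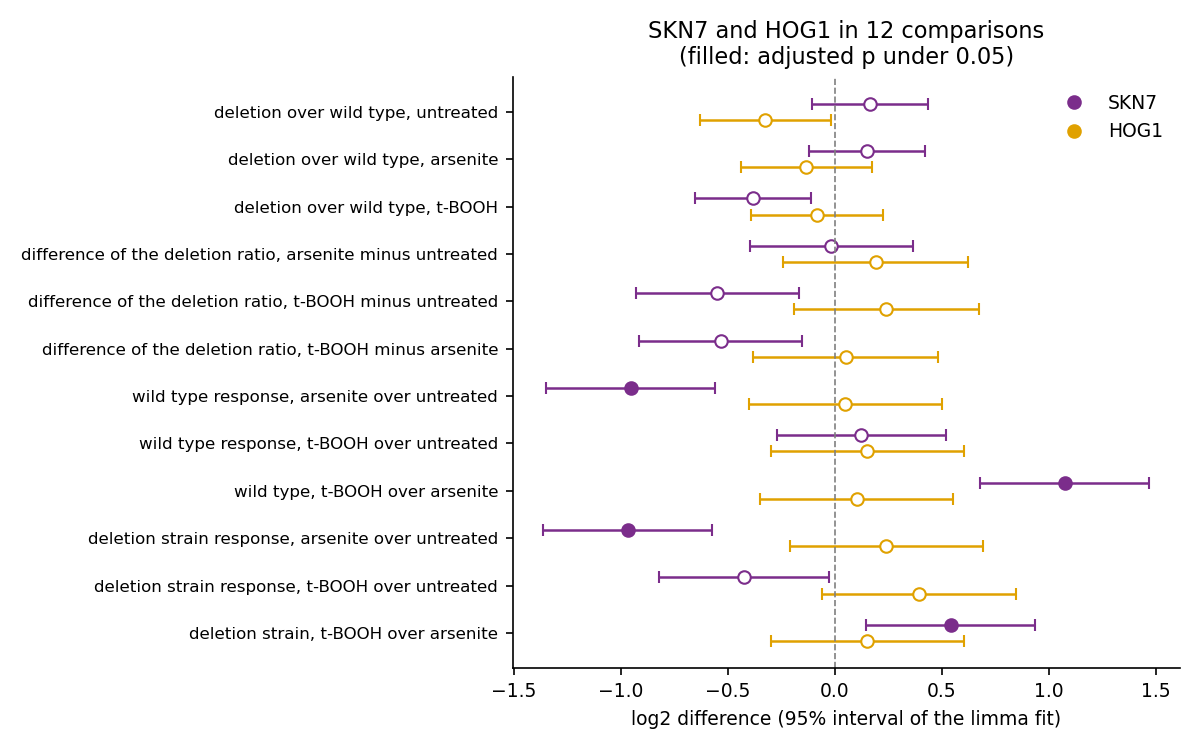
Fitted log2 differences (x axis, 95% intervals) of SKN7 and HOG1 in the 12 comparisons of strain, condition and their combination (y axis), filled where the limma adjusted p was under 0.05. SKN7 is filled in 4 rows, both arsenite responses (-0.95 and -0.97) and t-BOOH over arsenite in both strains (1.08 and 0.54), and HOG1 in none.

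Of the genes that act before Hog1 in the pathway, 3 of 13 were called under arsenite and 5 of 13 under t-BOOH in the wild type, beside 22.3% and 49% of all genes, so these counts do not set the list apart. Of 15 listed sensors, phosphorelay proteins and upstream kinases, 13 were measured. Under arsenite 1 rose and 2 fell in the wild type (median log2 0.06, against -0.03 over all genes, of which 12.3% were called higher and 10% lower). HKR1, a mucin-like sensor, was at 0.55, MSB2, another such sensor, at -0.53, and SHO1, the membrane protein of the second branch, at -0.71 (limma adjusted p = 0.0207, 0.0384 and 0.0433). These 3 calls were weak. HKR1 was no longer called without arsenite replicate 2 or without untreated replicate 1 or 4, MSB2 without any arsenite array or untreated replicate 2, 3 or 4, and SHO1 without any arsenite array, t-BOOH replicate 2, 3 or 4, or untreated replicate 2 or 4, with values as near to 0 as 0.41, -0.40 and -0.37. PBS2, the kinase that acts on Hog1, was at 0.13 (adjusted p = 0.619), and SLN1, YPD1 and SSK1, the phosphorelay, at -0.22, -0.09 and 0.13 with none called.

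Under t-BOOH 4 of the 13 rose and 1 fell in the wild type (median 0.33, against 0.08 over all genes, of which 27.1% were called higher and 21.9% lower). In the deletion strain 3 rose and 2 fell, against 23.6% and 19.4% of genes. YPD1, which hands phosphate to both Ssk1 and Skn7, rose by log2 1.04 (SE 0.21, limma adjusted p = 3.84e-04), a 2.05-fold change, and by 0.69 in the deletion strain (adjusted p = 0.0115), which leaving out untreated replicate 2 ended (adjusted p = 0.0534). STE11, a kinase of the Sho1 branch, rose by 1.25 (SE 0.24, limma adjusted p = 1.65e-04). Its wild-type levels were low beside those of HOG1 and SKN7, at 7.17 ± 0.26 untreated and 8.42 ± 0.67 under t-BOOH (SD, n = 4 each). OPY2, a membrane anchor of that branch, fell 1.99-fold (limma adjusted p = 8.93e-04). PBS2 rose by 0.48 in the wild type (adjusted p = 0.0208), a call that ended without replicate 4 of either condition (as low as 0.32), and stood at 0.22 in the deletion strain (adjusted p = 0.293). SLN1 was at -0.21 in the wild type with no call, and fell by 0.55 in the deletion strain (adjusted p = 0.0146), a call lost without untreated replicate 3 or t-BOOH replicate 4. Leaving out t-BOOH replicate 1 raised the count of called genes in the wild type from 5 to 8. Over all genes, calls ran from 2128 to 2824 of 5069 with 1 array left out, so the rise is not read as a result about the list.

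Among the 5 MAP kinase genes, HOG1 was the one not called in the wild type under t-BOOH. SMK1, known for spore formation, rose by log2 1.82 (SE 0.16, limma adjusted p = 1.44e-08), KSS1 of the filamentous growth pathway by 1.42 (SE 0.17, limma adjusted p = 6.92e-07) and SLT2 of the cell wall integrity pathway by 0.75 (SE 0.16, limma adjusted p = 5.09e-04). FUS3, the mating kinase, rose by 1.26 (SE 0.45, limma adjusted p = 0.0263), a call that ended without t-BOOH replicate 1, 2 or 4, or without untreated replicate 4 (as low as 0.76). So 4 of 5 rose, where 27.1% of all genes were called higher, and whether HOG1 differed from the other 4 was not tested. In the deletion strain under t-BOOH, SMK1 (1.51) and KSS1 (1.06) rose, and SLT2 (0.24) and FUS3 (0.81) did not pass. Of all genes 43% were called in that comparison, 23.6% as higher. Under arsenite, where 12.3% of all genes were called higher, SLT2 rose in the wild type, by 0.62 (SE 0.16, limma adjusted p = 0.00722), and KSS1, SMK1 and FUS3 were at -0.04, 0.01 and -0.94 with no call. Without untreated replicate 4 a second MAP kinase gene was called there.

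**Figure D5:**
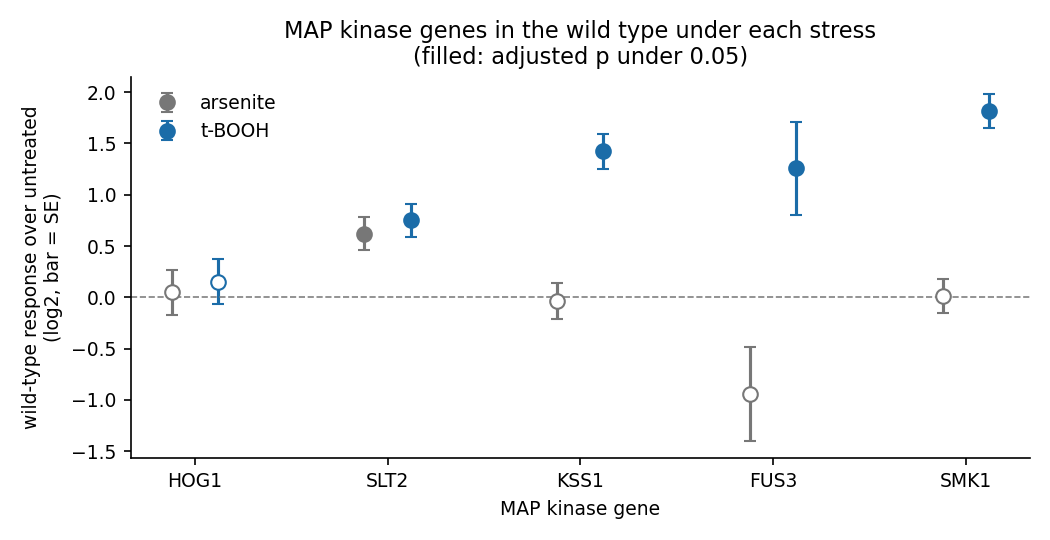
Wild-type response (log2 over untreated, y axis, bars of 1 SE) of the 5 MAP kinase genes (x axis) to arsenite and to t-BOOH, filled where the limma adjusted p was under 0.05. Under t-BOOH SMK1, KSS1, FUS3 and SLT2 lie at 0.75 to 1.82 and HOG1 at 0.15, and under arsenite SLT2 is the filled point. Without t-BOOH replicate 1, which is not drawn, HOG1 was at 0.37 under t-BOOH.

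Genes around and after Hog1 moved in both directions, as all genes did. Under t-BOOH 1 of 4 phosphatase or adaptor genes and 2 of 6 Hog1-linked genes were called in the wild type. Beside them stood 49% of all genes, 27.1% as higher and 21.9% as lower. Under arsenite 0 of 4 and 1 of 6 were called, beside 22.3% of all genes. These counts do not set the lists apart. Of 6 listed phosphatases and their adaptor 4 were measured. None was called under arsenite (1 without untreated replicate 2 and 2 without t-BOOH replicate 1). Under t-BOOH NBP2, the adaptor that brings the phosphatase Ptc1 to Pbs2, rose by log2 1.21 (SE 0.17, limma adjusted p = 4.92e-06), and a second gene was called without untreated replicate 2 or 4. Of 11 kinases and regulators linked to Hog1, 6 were measured. TUP1, a general co-repressor, was at -0.50 under arsenite and 0.46 under t-BOOH (limma adjusted p = 0.0368 and 0.0271). The arsenite call ended without any 1 arsenite array, t-BOOH replicate 4, or untreated replicate 1, 2 or 4. The t-BOOH call ended without t-BOOH replicate 2, 3 or 4, or untreated replicate 1, 2 or 3. HOT1, a regulator of glycerol genes, fell by 0.76 on the log2 scale under t-BOOH (adjusted p = 0.0105), which leaving out untreated replicate 2 ended (adjusted p = 0.0528).

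Of 16 osmotic and general stress output genes 8 were measured, and the glycerol-making genes GPD1, GPP1 and GPP2 had no match by symbol. In the wild type none was called under arsenite (median -0.10), beside 22.3% of all genes. Without untreated replicate 4, 2 were called. Under t-BOOH 2 rose and 2 fell (median -0.28), in a comparison where 49% of all genes were called. CTT1, cytosolic catalase and also one of the defence genes below, rose by log2 1.41 (SE 0.42, limma adjusted p = 0.00849). TPS2, of trehalose synthesis, fell by 1.17 on the log2 scale (limma adjusted p = 0.00192) and GPH1, glycogen phosphorylase, by 1.65 (limma adjusted p = 0.00261). For both genes the untreated and t-BOOH levels overlapped. TPS2 was as low as 14.28 untreated and as high as 14.45 under t-BOOH, and GPH1 as low as 12.71 and as high as 13.42. Untreated GPH1 spread widely, at 14.78 ± 1.38 (SD, n = 4). Neither of these 2 falls lost its call with 1 array left out.

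SKN7 was the one member of its own group called under arsenite. Of 8 listed Skn7 partners and heat-shock-factor-type regulators 7 were measured, and in each strain SKN7 fell and the other 6 did not pass. This was 1 of 7, beside 22.3% of all genes called in the wild type and 10.3% in the deletion strain. The count does not set the list apart. Without t-BOOH replicate 1 a second gene was called in the wild type. Under t-BOOH 2 of the 7 were called in the wild type, beside 49% of all genes. SFL1, a regulator with the same type of DNA-binding domain, rose by log2 0.72 (SE 0.23, limma adjusted p = 0.0137). RHO1, a small GTPase that binds Skn7, rose by 0.51 (adjusted p = 0.0286), and this call ended without t-BOOH replicate 1 or 3, or untreated replicate 1, 2 or 3. For deletion over wild type, SFL1 alone of the 7 was called, at -0.41 under t-BOOH (adjusted p = 0.0362), and lost without any one of the 4 t-BOOH arrays. In that comparison 18% of all genes were called, 10.6% as lower.

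Peroxide and thiol defence genes, the kind of gene Skn7 acts on in S. cerevisiae, included 8 that rose under arsenite in the wild type, where SKN7 fell. Of 27 listed genes 19 were measured, and in the wild type 8 rose under arsenite and none fell (median log2 0.79, against -0.03 over all genes, where 12.3% were called higher). The count of calls was 13 without t-BOOH replicate 1, and calls over all genes ran from 627 to 1820 of 5069 with 1 array left out. SRX1, sulfiredoxin, rose by 3.14 (SE 0.23), CCP1, cytochrome c peroxidase, by 2.62 (SE 0.21) and GPX2, a glutathione peroxidase, by 1.60 (SE 0.29, limma adjusted p = 2.87e-09, 2.15e-08 and 4.42e-04). In the deletion strain 7 rose, where 6.53% of genes were called higher, with SRX1 at 2.40, CCP1 at 2.55 and GPX2 at 1.52. Under t-BOOH 11 rose in the wild type and none fell (median 0.97, against 0.08 over all genes, of which 27.1% were called higher), led by the same genes at 3.51, 2.80 and 1.93. Many other regulators act on these genes, and their link to SKN7 was not tested.

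For deletion over wild type the pathway genes gave few calls. In untreated cells none was called in any of the 7 lists, beside 0.612% of all genes. Under arsenite 3 of the 19 defence genes were lower, where 3.39% of genes were called lower, and none of the members of the other 6 lists was called. SRX1 was at -0.83 (adjusted p = 0.00419, lost without arsenite replicate 2), CCP1 at -0.66 (adjusted p = 0.0171, lost without arsenite replicate 1, 2 or 3) and CCS1, the copper chaperone of superoxide dismutase, at -0.46 (SE 0.10, lost without t-BOOH replicate 2 or arsenite replicate 1, 2 or 3). Under t-BOOH 2 of the 19 were lower, where 10.6% of genes were. SOD1, the superoxide dismutase, was at -0.84 (adjusted p = 0.0240), lost without t-BOOH replicate 1, 2 or 4, and CTA1, peroxisomal catalase, at -0.58 (adjusted p = 0.0439), lost without any of 6 arrays (untreated replicate 2, arsenite replicates 3 and 4, t-BOOH replicates 2, 3 and 4). The count of 2 was 6 without t-BOOH replicate 3, 0 without t-BOOH replicate 2 or 4, and 1 without t-BOOH replicate 1, untreated replicate 2 or arsenite replicate 3 or 4. HOG1 pathway genes had ratios of -0.33 (PBS2), -0.28 (SSK1), -0.27 (YPD1) and -0.07 (SLN1) under t-BOOH with no call. Without t-BOOH replicate 3, 2 of the 13 sensor and upstream genes, 1 MAP kinase gene, 1 Hog1-linked gene and 2 osmotic output genes were called there. Without untreated replicate 3, 3 osmotic output genes were, and without untreated replicate 4, 1 of them and 1 sensor or upstream gene, and without untreated replicate 2, 1 of them. Over all genes, calls for this ratio ran from 257 to 1570 of 5069 with 1 array left out. These counts are therefore not read as results about the lists.

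HOG1 and SKN7 levels were weakly related. Over the 24 channels (12 arrays, both strains) the Pearson correlation of their normalized log2 levels was -0.12, a description over channels that share arrays. The 5 genes most like SKN7 over these channels were VMA16, a subunit of the vacuolar proton pump (r = 0.926), VCX1, a vacuolar calcium exchanger (r = 0.918), KLLA0B01826g (r = 0.895), GAS1, a cell wall glucan-remodelling enzyme (r = 0.889), and RRT6 (r = 0.882). The 5 most like HOG1 were PUB1, an RNA-binding protein (r = 0.791), CIP1 (r = 0.760), PET8, a mitochondrial S-adenosylmethionine carrier (r = 0.757), DHH1, a helicase of mRNA decay (r = 0.753), and MTC6 (r = 0.746). The highest of 5068 correlations were lower for HOG1 than for SKN7. The 24 channels include t-BOOH replicate 1, where HOG1 levels are uncertain because its spots differed in brightness. How far this bears on the HOG1 correlations was not tested.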

How the data were processed

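Per the file headers, arrays were read with Feature Extraction 10.7.3.1. The deposited median spot and background signals are intensity values without normalization, and the processed signals are intensity values that the scanner software background-subtracted and dye-normalized. A series table holds the authors' log2 values. Set against the ratios computed here they correlated at 0.991 to 0.999 with slopes of 1.01 to 1.03, so their scale is log2 and their direction deletion over wild type. Their column medians ran from -0.03 to 0.01. How they were normalized and centred, and the genome build of the probes, no source used here gives.

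Median signals were corrected by normexp (offset 50) and loess-normalized within arrays with limma 3.58.1 in R 4.3.3, leaving out control spots and flagged outliers, and the spots of a gene were averaged. A gene was tested if 4 or more arrays showed it well above background in either dye, which kept 5069 of 5081. Ratios were fitted with a coefficient per condition and 1 for the dye. Responses to a stress came from limma's separate-channel fit of 24 channels after Aquantile normalization (intraspot correlation 0.639), since no array set treated against untreated RNA. SE and 95% intervals are from the fits, called means a Benjamini-Hochberg adjusted p under 0.05 over all genes tested, and SDs are over 4 arrays. The number of arrays limits the precision. Both fits were also run on simulated data with independent noise. Those data held no slide, dye or single-array effect, so the run cannot show how such effects bear on the fits.

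Symbols came from a RefSeq table (assembly ASM251v1), which matched 5069 identifiers. The members, the 7 lists and the tests were chosen with earlier results of these data known. Named are the members, ARR1, up to 3 called members of a list per comparison with the largest change, the other MAP kinases, PBS2, SLN1, YPD1, SSK1 and the 5 genes with the highest correlation to each member. Where same-numbered replicates were set side by side, residual ratios correlated above 0.1 in 6 of 12 pairs (-0.32 to 0.35), so numbers were not taken to pair arrays. Alternatives tried cover background, signals, normalization, the authors' ratios, filter, dye, weights, arrays and a replicate block.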

Additional observations from a re-analysis of the deposited data

How the results depend on the processing

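Over 12 comparisons of each gene and all alternatives, 486 of the recomputed values kept their direction and side of the threshold, 18 gained a call, 2 lost one and 14 changed sign with no call on either side. Both falls of SKN7 under arsenite and its wild-type rise from arsenite to t-BOOH were called under every alternative run. With array quality weights, whose estimate stopped before full convergence, the t-BOOH ratio was called for HOG1 (-0.21) and SKN7 (-0.64), the SKN7 difference was called against untreated (-0.80) and arsenite (-0.78), and the HOG1 difference against arsenite turned to -0.13. Without a dye coefficient the SKN7 t-BOOH ratio was called at -0.38 (adjusted p = 0.0461). With channels scaled to the same median, HOG1 in the deletion strain rose under t-BOOH (0.65). With median centring the SKN7 ratio difference of arsenite from untreated was 0.029. Without the 3 arrays that stood apart (chosen after seeing the data), which leaves 2 t-BOOH arrays of 1 dye orientation, HOG1 was called under t-BOOH against untreated in the wild type (0.60) and the deletion strain (0.48) and against arsenite in the wild type (0.49), its ratio differences were -0.12 against untreated and -0.33 against arsenite, and SKN7 was called for the t-BOOH ratio (-0.56), its differences (-0.74 and -0.71) and the deletion-strain response (-0.40). The cause was not tested.

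Leaving out 1 array gave these ranges. For HOG1 they were -0.38 to -0.20 for the untreated ratio, -0.24 to -0.030 for the arsenite ratio, -0.23 to 0.11 for the t-BOOH ratio, -0.10 to 0.24 for its difference from arsenite, -0.048 to 0.13 for the wild-type arsenite response, -0.057 to 0.37 for the wild-type t-BOOH response, -0.11 to 0.32 for wild-type t-BOOH over arsenite and 0.32 to 0.49 for the deletion-strain t-BOOH response. For SKN7 they were -0.59 to -0.26 for the t-BOOH ratio, -0.76 to -0.43 and -0.74 to -0.41 for its differences from untreated and arsenite, -0.071 to 0.041 for the arsenite difference, -0.53 to -0.29 for the deletion-strain t-BOOH response and 0.47 to 0.59 for deletion-strain t-BOOH over arsenite. Over all genes, calls ran from 29 to 443 for the arsenite ratio (218 with all arrays) and 257 to 1570 for the t-BOOH ratio (914). For the wild-type responses they ran from 627 to 1820 for arsenite (1130) and 2128 to 2824 for t-BOOH (2484). Counts of list members with 1 array left out are to be read beside these totals. A replicate block changed no call of either gene, with SKN7 under arsenite at -0.95 in the wild type (adjusted p = 0.00133) and -0.97 in the deletion strain (adjusted p = 0.00249). No group of 4 values of either gene held an outlier by Dixon's test (18 groups checked).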
